A study of Mus musculus with 8 samples.

Results

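The genes described here are 33 genes of the pharyngeal endoderm and of epithelia, read in 8 pools of mouse outflow tracts. They were named as a list, as a gauge of pharyngeal tissue that a dissection might carry along, and all probes of the 33 genes on the array were taken, 44 probes in all. Of the 33 genes, 28 gave a measured value, among 24385 genes measured on these arrays. The other 5, Pax1, Ovol1, Elf3, Ehf and Rab25, had no probe that was well above background in at least 3 pools of the same genotype.

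The outflow tract is the vessel-like segment through which blood leaves the embryonic heart, and it was microdissected at stage E10.5. In 1 group, the KO pools, the embryos were Raldh2-/-, that is without the gene now named Aldh1a2, whose enzyme makes retinoic acid in the embryo. In the other, the WT pools, the embryos were wild type littermates. The dams of both groups had eaten food with 0.1 mg/g all-trans-retinoic acid from E7.5 to E8.5, so the WT embryos had received the early supplement too. Each array held RNA from 4 pooled tracts, and there were 4 arrays a group, KO pools 1, 2, 3 and 7 and WT pools 1, 2, 5 and 7. A pool value is an average over 4 embryos, and p-values measure the spread between pools.

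The pharyngeal endoderm is the epithelial sheet that lines the foregut behind the mouth. It lies next to the outflow tract in the embryo, folds into pouches, and gives rise to the thyroid, parathyroid and thymus. Epithelial cells of this and other sheets are joined by adherens junctions built on cadherins, by tight junctions built on claudins, and by desmosomes. Transcription factors of the grainyhead-like family and splicing regulators of the Esrp family maintain the epithelial state. The heart muscle, the cushion mesenchyme and the smooth muscle of the outflow tract are not epithelia of this kind.

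Signals are given on a log2 scale, as the background-subtracted processed signal over the 75th percentile of its array, so a value of 0 is the brightness at that percentile. Values for a gene stand in the order KO pools 1, 2, 3 and 7 and WT pools 1, 2, 5 and 7. Probes differ in brightness per transcript, so levels are compared between pools and not between genes. The array of WT pool 1 was unlike the rest, with a median processed signal of 2023 where the other 7 had 40.0 to 83.0, and a median correlation over probes of 0.759 where they had 0.978 to 0.989. It called 87.5% of the 15184 probes that were dim in all 7 other pools, and their median on it was -1.98. Results are therefore given over 8 arrays and over the 7 without WT pool 1. All KO arrays lay in 1 row of the slide and all WT arrays in the other, and the slide row cannot be told apart from the genotype. The probe for Aldh1a2, the gene the labels say is lost, read 2.02, 2.01, 1.87 and 0.059 in the KO pools, against 1.92, 3.21, 2.98 and 3.65 in the WT pools, a difference of -1.45 (exact permutation p = 0.0857, two-sided). Without WT pool 1 it was -1.79 (exact permutation p = 0.0286, the smallest that 35 assignments allow).

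Sequences of 4 array probes are shown because 3 of them span a splice junction, so that genomic DNA would not match them over their whole length, and the fourth holds a triplet repeat and disagrees with the other probe of its gene. The RNA had been taken without DNase. The Epcam probe covers chr17:88048972-88049800, the Ap1m2 probe chr9:21102750-21103762 and the Rab25 probe chr3:88346274-88346663 on mm9, each with an intron left out. The Trp63 probe that stands for the gene covers chr16:25871159-25871218, and capitals mark its run of 6 CAG triplets.
Epcam probe: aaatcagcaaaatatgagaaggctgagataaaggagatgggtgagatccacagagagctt
Ap1m2 probe: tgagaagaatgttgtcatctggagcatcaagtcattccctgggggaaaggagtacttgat
Rab25 probe: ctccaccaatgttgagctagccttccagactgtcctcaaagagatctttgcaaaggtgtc
Trp63 probe: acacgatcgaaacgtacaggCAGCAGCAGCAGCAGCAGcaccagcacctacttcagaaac

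None of the 28 measured genes passed the test between genotypes, and 19 of them shared a wide difference between single pools that cut across the genotypes. Apart from WT pool 1, these 19 genes were highest in KO pool 7 and WT pool 2. For 17 of them KO pool 3, WT pool 5 and WT pool 7 were the 3 lowest. Centred on each gene's mean over 7 pools, the 19 averaged 0.46, 0.28, -1.31 and 1.97 in KO pools 1, 2, 3 and 7, against 1.61, -1.31 and -1.70 in WT pools 2, 5 and 7. The 19 are set apart by their 2 highest pools, 1 of each genotype, so a high pool in each genotype and overlapping groups follow from that choice. Over all 28 measured genes, without that choice, the centred means were 0.31, 0.18, -0.86 and 1.32 in KO pools 1, 2, 3 and 7. In WT pools 2, 5 and 7 they were 1.06, -0.90 and -1.12. The other 9 genes, Cdh3, Perp, Dsp, Jup, Grhl1, Grhl3, Ovol2, Spint2 and Trp63, averaged between -0.093 and 0.11 in all 7 pools on the same scale.

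**Figure D1:**
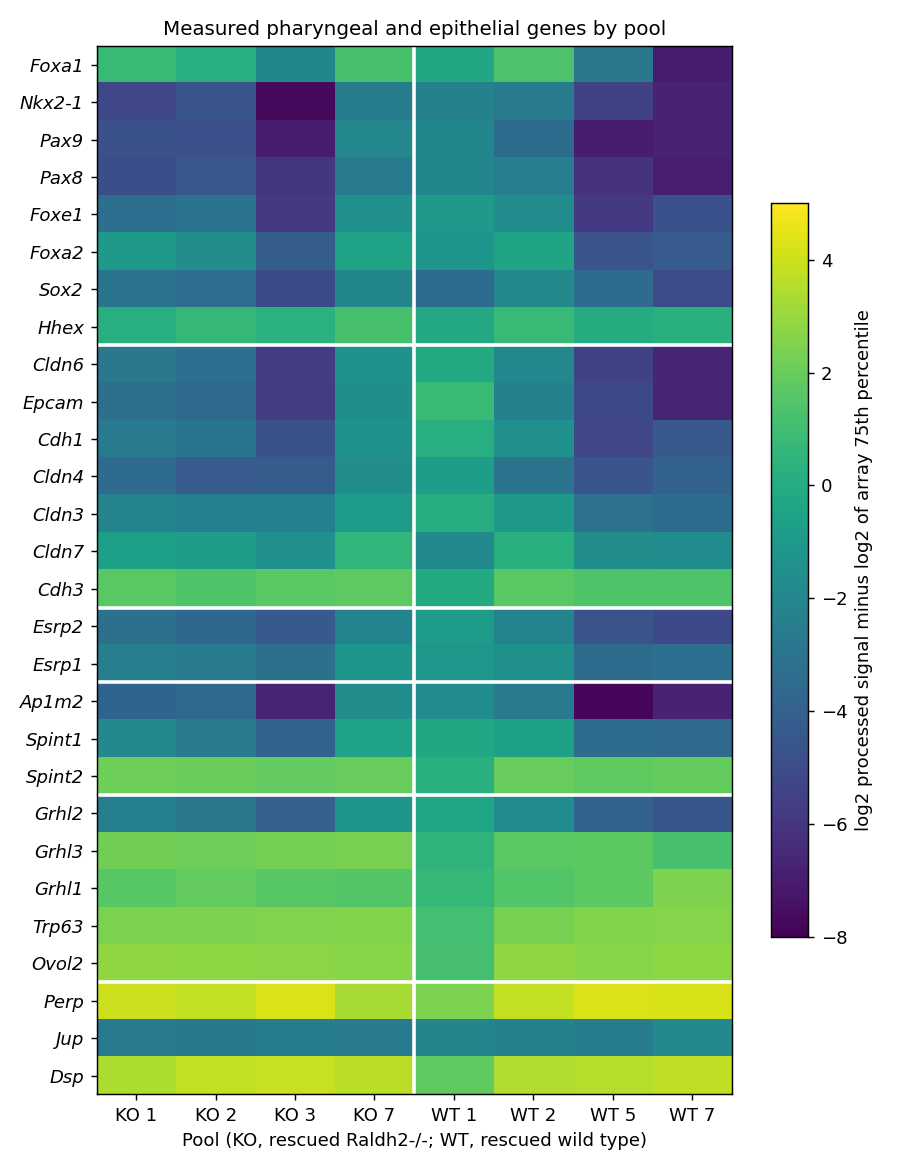
Signal of the 28 measured genes (rows, grouped by role) in each pool (columns, KO left of the line and WT right of it), as log2 processed signal over the 75th percentile of the array. In most rows of the upper 4 blocks KO pool 7 and WT pool 2 are bright while KO pool 3, WT pool 5 and WT pool 7 are dark, and the lower rows other than Grhl2 range over 1.13 or less apart from WT pool 1.

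The pool pattern was found after the values were seen, and it is given as a description with its background and no test. KO pool 7 and WT pool 2 were the 2 highest of 7 pools for 19 of 28 genes, against 6.93% of all 24385 genes. KO pool 3, WT pool 5 and WT pool 7 were the 3 lowest for 18 of 28, against 6.31%, and 17 had both features, against 1.67%. Over all genes KO pool 7 was the single highest pool for 32.0% and WT pool 7 the single lowest for 22.6%, while among the 28 these counts were 16 and 9. The range over 7 pools exceeded 2 on the log2 scale for 18 of 28 genes, against 8.16% of all genes. These ranges include values that were not well above background, and for 9 of the 28 genes the lowest of the 7 pools was such a value, so that background sets the low end. For those genes a fold is given as a bound, with each such value raised to the lowest signal called well above background on its array, if its own was lower. With the values raised in this way the range exceeded 2 for the same number, 18 of 28. The lowest called signal is that of a whole array and not the detection limit of each probe. Nkx2-1 in KO pool 1, at -5.22, was not called although the lowest called signal there was -5.46. A fold or range given as a bound therefore holds under this rule only. Less epithelial RNA per cell and fewer epithelial cells in a pool cannot be told apart in bulk RNA, and whether pharyngeal tissue was carried along in the dissection was not tested.

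Of the 9 transcription factors of the pharyngeal endoderm, 8 were measured, and all 8 were highest in KO pool 7 and WT pool 2. Foxa1, a pioneer factor of endoderm that opens closed chromatin, had log2 values of 0.74, 0.18, -2.06 and 1.22 in the KO pools, against -0.22, 1.35, -2.86 and -7.03 in the WT pools. In WT pool 7 its probe, at chr12:58641764-58641823 on mm9, was not well above background. WT pool 2, the highest of the 7, was at least 66.9-fold higher than WT pool 7 in signal. Foxa2, the related pioneer factor of endoderm and floor plate, had values of -0.97, -1.58, -4.18 and -0.49 in the KO pools, against -1.16, -0.42, -4.60 and -4.25 in the WT pools. It was well above background in every pool, and WT pools 5 and 7 and KO pool 3 lay more than 2 log2 units below each other pool. Its second probe, dimmer, kept the same 3 pools at the bottom with a range of 5.25. That probe was above background in 4 of the 7 pools, so background sets the low end of its range.

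Pax9 and Pax8 are paired-box factors, of the pouches and of the thyroid primordium. The Pax9 values were -4.76, -4.83, -6.94 and -1.96 in the KO pools, against -2.01, -3.39, -7.00 and -6.75 in the WT pools. Pax8 read -4.89, -4.48, -5.88 and -2.59 in the KO pools, against -2.04, -2.46, -6.13 and -6.93 in the WT pools. Both were above background in 3 of 4 KO pools and, apart from WT pool 1, in 1 of 3 WT pools, WT pool 2. Nkx2-1, the factor of the thyroid and lung primordia, had -5.22, -4.64, -7.68 and -2.54 in the KO pools, against -2.27, -2.64, -5.50 and -6.77 in the WT pools. Its probe was above background in 2 KO pools and in 3 WT pools with WT pool 1 included, so it counts as measured only through that array. Foxe1, a forkhead factor of the thyroid primordium and the foregut, gave -3.27, -3.05, -5.82 and -1.45 in the KO pools, against -0.99, -1.65, -5.78 and -4.72 in the WT pools. The lowest pool of each of the 4 genes was not well above background, and the highest of 7 pools exceeded the lowest by at least 3.40 log2 units for Pax8, 3.90 for Pax9, 3.04 for Nkx2-1 and 4.33 for Foxe1. Of these 7 KO pool 7 was highest for Pax9, Nkx2-1 and Foxe1 and WT pool 2 for Pax8. Sox2, a factor of the anterior foregut that is also made in neural tissue, read -2.99, -3.32, -5.08 and -2.05 in the KO pools, against -3.45, -1.81, -3.45 and -5.01 in the WT pools. For Sox2 the order was the same at both ends, with WT pool 2 highest. Hhex, a homeobox factor of foregut endoderm that is also made in endothelium, had 0.18, 0.66, 0.29 and 1.22 in the KO pools, against -0.14, 0.83, 0.042 and 0.26 in the WT pools. Its range of 1.18 was the narrowest of the 19, and WT pool 5 and KO pool 1 were its lowest of the 7.

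In WT pool 1, 6 of these 8 factors lay within the level of the dim probes of that array. Pax9 at -2.01, Pax8 at -2.04, Nkx2-1 at -2.27 and Sox2 at -3.45 lay below the median of -1.98 that dim probes reached there. Foxa2 at -1.16 and Foxe1 at -0.99 lay under their 95th percentile of -0.34, so those 6 values cannot be told from dim probes. Foxa1 at -0.22 and Hhex at -0.14 lay above it. Epcam at 0.74, Cdh1 at 0.18, Cldn3 at 0.075 and Cldn6 at -0.052 also lay above it. So did another Foxe1 probe at 0.83 and the Ovol1 probe at 0.077, each above background in 1 of the 7 other pools. The Elf3 probe, above background in 0 of those 7, read -2.51. A place above that percentile thus does not by itself tell a value from dim probes.

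Of the 7 genes of cell adhesion and tight junctions, all were measured and 6 had KO pool 7 and WT pool 2 on top. Epcam, the epithelial cell adhesion molecule, had log2 values of -3.20, -3.54, -5.71 and -1.53 in the KO pools, against 0.74, -2.34, -5.17 and -6.64 in the WT pools. Its probe was not well above background in KO pool 3 and WT pool 7, the lowest pool of each group. The highest of 7 pools, KO pool 7, exceeded the lowest at least 16.5-fold. Cdh1, E-cadherin, which holds epithelial cells together at adherens junctions, read -2.70, -2.94, -4.79 and -1.34 in the KO pools, against 0.18, -1.41, -5.25 and -4.35 in the WT pools. It was above background in all 8 pools, and KO pool 7 and WT pool 2 differed by less than 0.1.

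The claudins form the strands of tight junctions. Cldn6, made in embryonic epithelia, had -2.86, -3.26, -5.69 and -1.36 in the KO pools, against -0.052, -1.91, -5.42 and -6.67 in the WT pools. Its probe was not well above background in KO pool 3 and WT pool 7, and the highest of 7 pools exceeded the lowest at least 18.7-fold. Cldn3 gave -2.20, -2.36, -2.39 and -0.84 in the KO pools, against 0.075, -1.01, -3.09 and -3.41 in the WT pools, and Cldn3 in KO pool 7 lay apart from the other 3 KO pools, which spanned under 0.2. The Cldn4 values were -3.47, -4.29, -4.19 and -1.58 in the KO pools, against -0.77, -2.98, -4.59 and -3.91 in the WT pools. Cldn7 read -0.68, -0.73, -1.47 and 0.57 in the KO pools, against -1.79, 0.25, -1.59 and -1.67 in the WT pools. All 4 claudins had the same 2 pools on top. For Cldn4 KO pool 2 rather than WT pool 7 was among the 3 lowest, and its second probe, with a range of 4.86, put WT pools 5 and 7 at the bottom. That probe was above background in 5 of the 7 pools, so background sets the low end of its range. Cdh3, P-cadherin, was the exception of this role. Its values were 1.67, 1.41, 1.70 and 1.76 in the KO pools, against -0.052, 1.65, 1.44 and 1.42 in the WT pools, a range of 0.36 over 7 pools.

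Esrp1 and Esrp2 direct epithelial patterns of alternative splicing, and both followed the pool pattern. Esrp1 had -2.43, -2.64, -3.21 and -1.15 in the KO pools, against -1.05, -1.47, -3.42 and -3.24 in the WT pools. Esrp2 had -3.19, -3.67, -4.36 and -2.14 in the KO pools, against -0.86, -2.11, -4.68 and -5.13 in the WT pools. The Esrp2 probe was not well above background in WT pool 7. The 7-pool range was 2.27 for Esrp1 and at least 2.60 for Esrp2. For both genes the 3 low pools lay at least 0.5 below each other pool. Spint1, a membrane inhibitor of serine proteases such as matriptase, read -1.89, -2.65, -3.87 and -0.51 in the KO pools, against -0.25, -0.57, -3.39 and -3.58 in the WT pools. KO pool 7 and WT pool 2 differed by under 0.1 for Spint1, and its second probe had the same 2 pools highest with a range of 3.86. Ap1m2, the epithelial subunit of the adaptor that sorts cargo to the basolateral membrane, had -3.83, -3.56, -6.63 and -1.64 in the KO pools, against -1.69, -2.68, -7.78 and -6.71 in the WT pools. Its probe was not well above background in KO pool 3 and in WT pools 5 and 7, and the highest of 7 pools exceeded the lowest at least 18.6-fold. Spint2, the second protease inhibitor, had 2.13, 2.06, 1.88 and 1.99 in the KO pools, against 0.25, 1.97, 1.83 and 1.91 in the WT pools. Spint2 was flat, with 0.30 between its highest and lowest of 7 pools, and it is also made outside epithelia. A second Spint2 probe ranged over 1.67, with WT pool 2 highest and WT pool 7 lowest of the 7.

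Of 8 epithelial transcription factors 5 were measured, and by the probe that stands for each gene only Grhl2 of them followed the pool pattern. Grhl2, the grainyhead-like factor that activates Cdh1 and claudin genes, had log2 values of -2.36, -2.78, -4.02 and -1.14 in the KO pools, against -0.33, -1.65, -3.91 and -4.53 in the WT pools. Its range was 3.39, and the 3 low pools lay more than 1 log2 unit below the other 4. Grhl1 read 1.62, 1.88, 1.62 and 1.51 in the KO pools, against 0.64, 1.48, 1.72 and 2.50 in the WT pools, with WT pool 7 highest. Grhl3, the family member needed for neural tube and skin closure, had 2.21, 2.15, 2.28 and 2.34 in the KO pools, against 0.46, 1.66, 1.70 and 1.21 in the WT pools. The 4 KO values of Grhl3 lay above all 4 WT values, and they spanned under 0.2 while the WT values spanned over 1. Ovol2, a zinc finger factor that keeps mesenchymal genes off, gave 2.84, 2.80, 2.74 and 2.69 in the KO pools, against 1.15, 2.82, 2.67 and 2.81 in the WT pools. Ovol2 had the narrowest range of the 28, 0.17 over 7 pools.

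Trp63, the p63 factor of stratified epithelia and surface ectoderm, had 2 probes that disagreed. The brighter probe, the one with the triplet repeat, read 2.43, 2.43, 2.54 and 2.61 in the KO pools, against 1.14, 2.32, 2.58 and 2.66 in the WT pools. The second probe, at chr16:25892012-25892071, read -1.91, -2.41, -4.98 and -1.54 in the KO pools, against -2.98, -0.69, -6.34 and -5.34 in the WT pools. The first was flat, with a range of 0.34. The second had WT pool 2 and KO pool 7 highest and KO pool 3, WT pool 5 and WT pool 7 lowest, with a range of 5.65. It was above background in all 4 KO pools and, apart from WT pool 1, in 1 WT pool, so background sets the low end. Fitted on its own, the second probe had a log2 fold change of 1.13 ± 1.26, and 1.41 ± 1.43 without WT pool 1, with limma adjusted p of 0.749 and 0.748. The value that stands for Trp63 here is that of the brighter probe, so its even level rests on the choice of probe. The Ovol2 probe also holds a tandem repeat, of 16 bases. Of 33400 kept probes, 316 held a tandem repeat of at least 15 bases, and 1.27% of those had a range over 2, against 8.51% of the other kept probes. The 316 were also brighter, with a median signal of 2.94 against -1.19, and dim probes varied more, so the shares do not isolate the repeat. Whether these repeats let other transcripts bind was not tested.

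The 3 desmosome genes did not follow the pool pattern. Perp, a membrane protein of desmosomes and a p53 target, read 4.00, 3.79, 4.31 and 3.32 in the KO pools, against 2.45, 3.82, 4.31 and 4.20 in the WT pools. Dsp, desmoplakin, which ties desmosomes to intermediate filaments, had 3.42, 3.81, 3.91 and 3.66 in the KO pools, against 1.81, 3.47, 3.56 and 3.78 in the WT pools. A second Dsp probe, dimmer, had a range of 1.18 with WT pool 7 highest and WT pool 2 lowest of the 7. Dsp is also made in heart muscle, and Perp was at its lowest of the 7 pools in KO pool 7. Jup, plakoglobin, a catenin shared by desmosomes and adherens junctions, had -2.70, -2.75, -2.56 and -2.60 in the KO pools, against -2.06, -2.35, -2.47 and -1.78 in the WT pools. For Jup every KO pool lay below every WT pool, and KO pool 3 and WT pool 5 lay closest to each other.

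The 5 genes that were not measured were dim. Pax1, a pouch factor, ranged over -7.58 to -0.64 in 7 pools and was above background in 2 KO pools and 1 WT pool, with KO pool 7 highest. Rab25, a GTPase of epithelial recycling, ranged over -6.28 to -2.83 and was also above background in 2 KO pools and, apart from WT pool 1, in 1 WT pool. Ovol1, Elf3 and Ehf, factors of differentiating epithelia, were above background in none of the KO pools. Apart from WT pool 1, they were so in at most 1 WT pool. Over all 33 genes, the number with any probe above background was 28, 29, 21 and 30 in KO pools 1, 2, 3 and 7. It was 32, 31, 25 and 18 in WT pools 1, 2, 5 and 7. Of all spots on the array, 61.1%, 61.6%, 61.3% and 63.2% were above background in KO pools 1, 2, 3 and 7. In WT pools 1, 2, 5 and 7 these shares were 94.7%, 62.2%, 62.5% and 53.3%. The low count in WT pool 7 thus stood beside the lowest share over all spots, while the shares of KO pool 3 and WT pool 5 lay between those of KO pools 1 and 7.

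**Figure D2:**
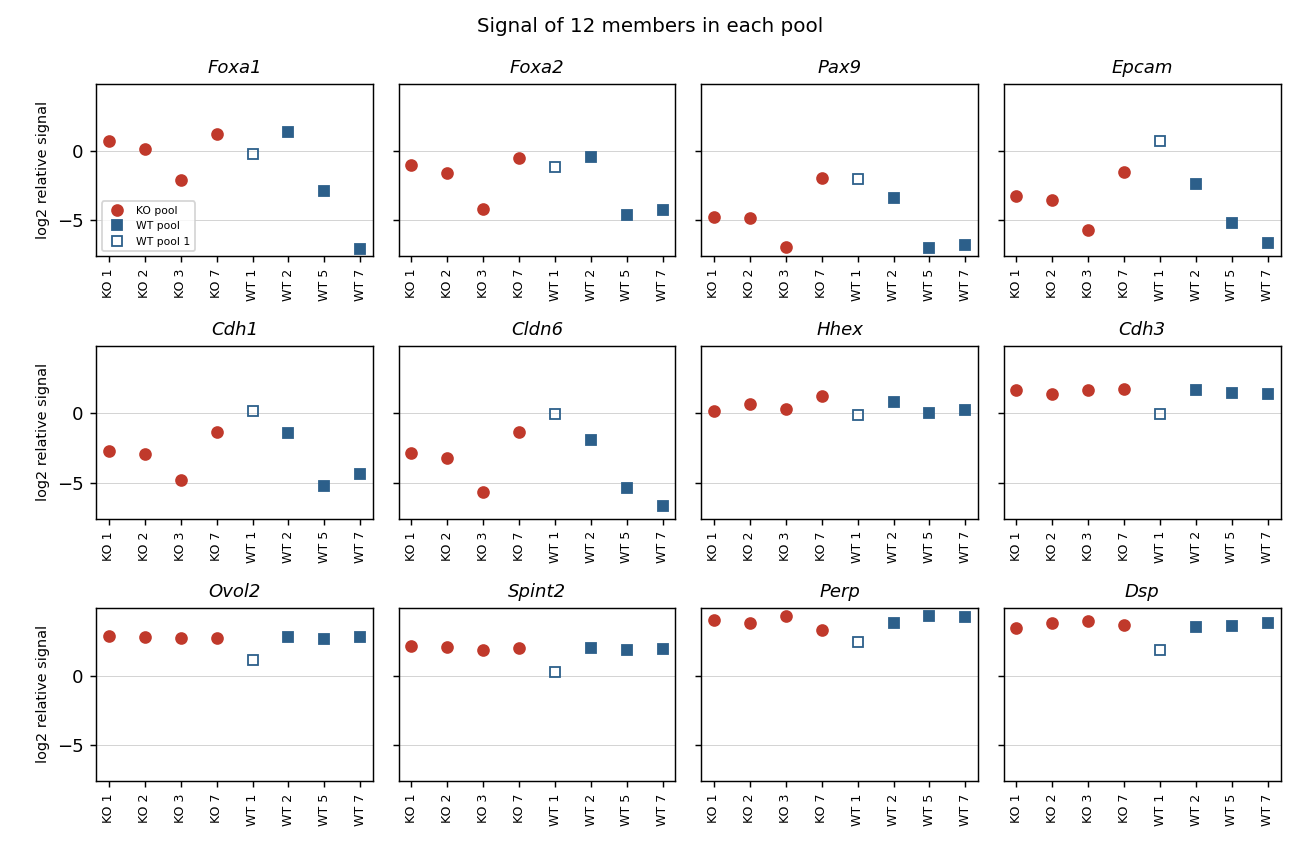
Log2 relative signal of 12 genes in each pool (the array's 75th percentile is 0), with KO pools as filled circles to the left, WT pools as filled squares to the right and WT pool 1 as an open square. Foxa1, Foxa2, Pax9, Epcam, Cdh1 and Cldn6 differ by several log2 units within each genotype, while Cdh3, Ovol2, Spint2 and Dsp range over 0.49 or less apart from a low WT pool 1.

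As signal, values not above background included, the ranges of the 19 genes ran over 1.18 to 8.38 with a median of 3.91, against 0.168 to 1.13 for the other 9 and a median of 0.645 over all genes. The standard deviation within groups, over 7 pools, lay between percentiles 82.2 and 99.99 of all genes for the 19, and between 3.90 and 74.8 for the 9. The probes of the 19 had mean signals of -5.09 to 0.50 and those of the 9 of -2.46 to 3.97, and dim probes varied more between arrays over all genes, as the plot of range against level shows. In KO pool 7 and WT pool 7 the dim probes themselves read higher, with medians of -6.64 and -6.75, while those of KO pools 2 and 3 were -7.64 and -7.59 and that of WT pool 5 was -7.78. WT pool 2, with a dim-probe median of -7.64, and WT pool 7 were at opposite ends for the 19 genes.

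**Figure D3:**
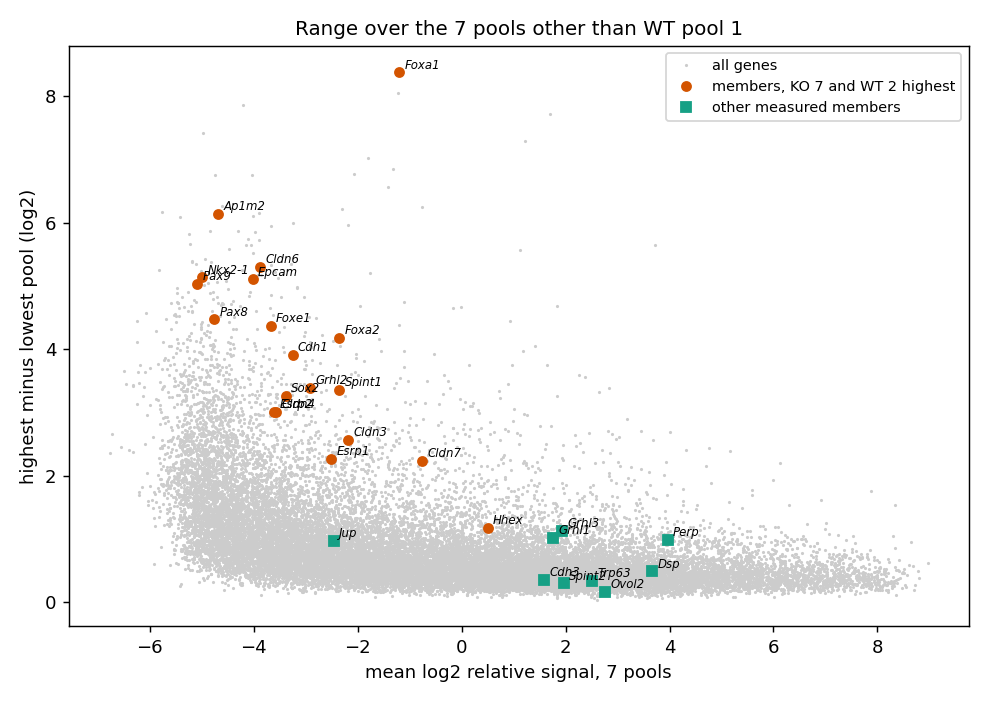
Range over the 7 pools other than WT pool 1 (highest minus lowest, log2, vertical) against mean log2 relative signal (horizontal) for all genes (grey), the 19 genes with KO pool 7 and WT pool 2 highest (circles) and the other 9 (squares). The circles lie in the upper part of the cloud at their level, up to 8.38 for Foxa1, whose lowest value was not above background, and the squares lie at 1.13 or less.

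No gene passed the comparison of genotypes. With limma and Benjamini-Hochberg adjustment over 24385 genes, 0 of the 28 and 0% of all genes had an adjusted p under 0.05, and the smallest adjusted p among the 28 was 0.735. Without WT pool 1 it was again 0 of 27 and 0% of 23760, with a smallest adjusted p of 0.329. At an unadjusted p under 0.05 there was 1 of 28, Grhl3, against 1.78% of all genes, and 2 of 27 without WT pool 1, Grhl3 and Jup, against 10.6%. The genotypes did not overlap for 2 of 28, or 7.14%, Grhl3 higher and Jup lower in the KO pools, against 5.49% of all genes. For 3.95% of all genes the KO pools were the higher and for 1.54% the lower ones. Without WT pool 1 the same 2 genes were 7.41% of 27, against 11.4% of all genes, 6.57% with the KO pools higher and 4.87% with them lower. These shares are near the background.

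Grhl3, at chr4:135097991-135098050 on mm9, averaged 2.25 ± 0.084 in the KO pools and 1.26 ± 0.58 in the WT pools (SD, n = 4 each). The log2 fold change was 0.99 ± 0.33 (SE), and 0.72 ± 0.14 without WT pool 1, with limma adjusted p of 0.735 and 0.329. Jup, at chr11:100238038-100238097, averaged -2.65 ± 0.088 in the KO pools and -2.17 ± 0.31 in the WT pools, a log2 fold change of -0.48 ± 0.26, and -0.45 ± 0.18 without WT pool 1. Its limma adjusted p was 0.735 and 0.450. The direction of Jup over 8 arrays turned with the scaling, to 0.056 ± 0.71 when arrays were scaled to their median and to 0.56 ± 0.98 under quantile normalization. Neither gene is among the 19 that varied between pools.

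The genes that varied between pools had log2 fold changes under 2 standard errors in both fits. Foxa1 had a log2 fold change of 2.21 ± 1.65, and 2.87 ± 1.83 without WT pool 1. Epcam had -0.14 ± 1.54 over 8 arrays and 1.22 ± 1.22 over 7. For Cdh1 they were -0.23 ± 1.22 and 0.73 ± 1.07, and for Foxa2 0.80 ± 1.13 and 1.29 ± 1.24. The sign for Epcam and Cdh1 turned with WT pool 1, and no sign is read from any of the 4. Of the 28 fold changes 17 were positive, with a median of 0.11, against 0.13 over all genes. Without WT pool 1, 22 of 27 were positive, with a median of 0.44, against 0.053 over all genes. Of the 27 genes 9 entered through the KO pools alone, and no difference is read from that median. Without a filter and without WT pool 1, the 33 genes had a median of 0.35 with 24 positive. No value over all genes stands beside it, and what sets these medians was not tested.

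The median also followed single pools. Leaving out 1 pool of the 8 at a time gave medians between -0.37, without WT pool 7, and 0.53, without WT pool 2. In settings chosen after the values were seen, the median was 1.05 without WT pools 1 and 2, against 0.036 over all genes, and 0.047 without WT pool 1 and KO pool 7, against 0.029. Without WT pools 1 and 2, 10 of 27 genes did not overlap between the genotypes, against 23.0% of all genes. Leaving out WT pool 1 and KO pool 7 also left 21 of the 28 genes measured, since the filter then had fewer KO pools. Over 8 arrays the median was -0.12 without KO pool 7.

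**Figure D4:**
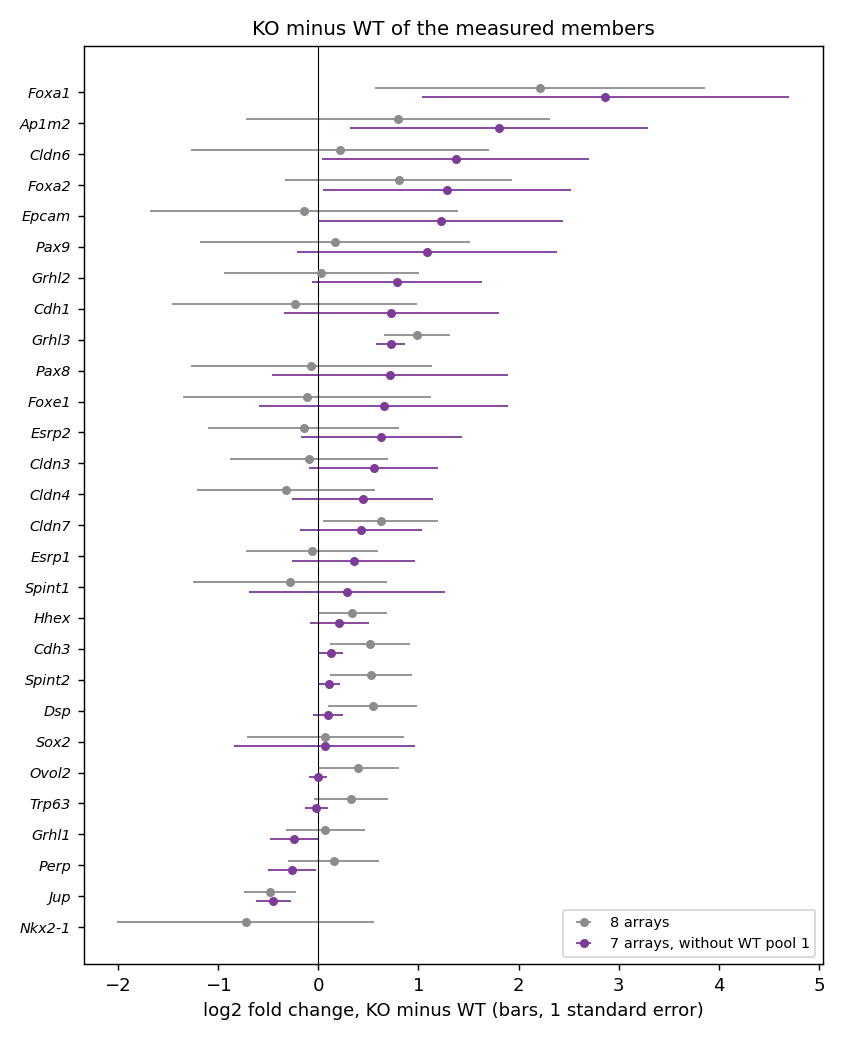
Log2 fold change of each measured gene, KO minus WT (horizontal, bars of 1 standard error), over 8 arrays (grey) and over 7 without WT pool 1 (purple); Nkx2-1 has no value over 7. Most bars cross or come close to 0, Grhl3 lies right of 0 and Jup left of it in both fits, and Foxa1 has the widest bars.

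Other epithelial genes showed the pool pattern to a smaller extent. Of 38 further genes of epithelia 36 were measured, and none passed limma's adjusted threshold in either direction. KO pool 7 and WT pool 2 were on top for 17 of the 36, against 6.93% of all genes. The 3 low pools were lowest for 13 of the 36, against 6.31% of all genes. The centred mean of the 36 was 0.071, 0.020, -0.44 and 0.69 in KO pools 1, 2, 3 and 7, against 0.47, -0.52 and -0.29 in WT pools 2, 5 and 7. Krt18, a keratin of simple epithelia, read 4.50, 4.58, 4.34 and 5.16 in the KO pools, against 3.61, 5.03, 4.40 and 5.32 in the WT pools. Krt8, its partner keratin, had 3.59, 3.84, 3.39 and 3.85 in the KO pools, against 2.61, 4.42, 4.14 and 4.50 in the WT pools, and Lsr, of tricellular junctions, had 3.70, 3.66, 3.77 and 3.97 in the KO pools, against 1.77, 3.84, 3.59 and 3.56 in the WT pools. Krt8 and Krt18, which are also made in the embryonic heart, were highest in WT pool 7, and Lsr had KO pool 7 and WT pool 2 on top within a narrow span of the 7 pools.

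Of 15 further genes of the pharyngeal endoderm and pouches 10 were measured and none passed. KO pool 7 was high in them, with a centred mean of 0.97, against 0.29 for WT pool 2, -0.42 for WT pool 5 and -0.29 for WT pool 7. In KO pools 1, 2 and 3 it was -0.15, 0.037 and -0.44. Nkx2-6, a homeobox factor of pouch endoderm and outflow tract, read 0.62, 1.25, 0.56 and 1.94 in the KO pools, against 0.20, 0.89, 0.66 and -0.042 in the WT pools. Sox17, of endoderm and of endothelium, had -0.028, 0.56, -0.068 and 1.08 in the KO pools, against -1.57, 0.39, -0.33 and 0.063 in the WT pools, and Fgf8, a growth factor of pharyngeal epithelia and heart field, had -1.49, -0.41, -1.64 and -0.14 in the KO pools, against 0.015, -0.84, -1.24 and -0.75 in the WT pools. All 3 were highest in KO pool 7 of the 7. Of the 10 genes 2 had both KO pool 7 and WT pool 2 on top, against 6.93% of all genes.

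Of 10 surface ectoderm genes all were measured and none passed. KO pool 7 and WT pool 2 were on top for 2 of the 10, against 6.93% of all genes. Trp63 and Grhl3 of this list are also among the 33. The centred mean was highest in KO pool 7, at 0.75, with 0.41 in WT pool 2. Fras1, a matrix protein under epithelia, ran the other way in KO pool 7, with 0.87, 1.16, 1.32 and 0.28 in the KO pools, against -0.72, 0.93, 0.81 and 1.12 in the WT pools. In the neural list, 8 of 9 genes measured, KO pool 7 had a centred mean of 0.71 and KO pool 3 of 0.39, against 0.24 in WT pool 2 and -0.74 and -0.72 in WT pools 5 and 7. The pharyngeal factors had a centred mean of -1.55 in KO pool 3. Tubb3, a neuronal tubulin, had 1.86, 1.61, 1.45 and 1.81 in the KO pools, against 0.067, 1.20, 1.76 and 1.00 in the WT pools, with KO pool 3 the lowest of the KO pools.

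Genes of the outflow tract itself were measured in every pool, and the median ranges of their lists lay near the 0.645 over all genes. The median range over 7 pools was 0.78 for the 8 cardiomyocyte genes and 0.79 for the 4 smooth muscle genes. It was 0.64 for the 11 genes of mesenchyme and cushion and 0.61 for the 6 of endothelium. For the 8 pharyngeal factors it was 4.43, with values not well above background included. The mean signal of those factors was -5.15 to -1.08 over the 7 pools, against 0.90 to 6.85 for the lists just named. The lists thus differ in brightness, and dim probes varied more between arrays. Actc1, cardiac actin, read 8.59, 8.82, 8.51 and 8.72 in the KO pools, against 6.35, 8.47, 8.68 and 9.05 in the WT pools. Tagln, an actin-binding protein of smooth muscle, had 7.02, 7.05, 7.08 and 7.20 in the KO pools, against 4.86, 7.09, 7.20 and 7.47 in the WT pools, and Vim, of mesenchyme, had 6.70, 6.66, 6.75 and 6.37 in the KO pools, against 4.71, 6.70, 6.91 and 6.83 in the WT pools. The cardiomyocyte list had its highest centred mean in WT pool 7, at 0.81, and its lowest in KO pool 1, at -0.44. The epicardial and mesothelial list, 8 of 8 measured, had centred means of 0.24, -0.46, 0.68 and -0.46 in KO pools 1, 2, 3 and 7, against -0.38, -0.12 and 0.50 in WT pools 2, 5 and 7. It was highest in KO pool 3 and WT pool 7, which were low for the pharyngeal factors. Wt1, a zinc finger factor of epicardium, had 2.77, 2.19, 2.73 and 2.04 in the KO pools, against 0.86, 1.93, 2.10 and 2.81 in the WT pools. In none of these lists did a gene pass the test, and the part of any of them in the values of the 33 genes was not tested.

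**Figure D5:**
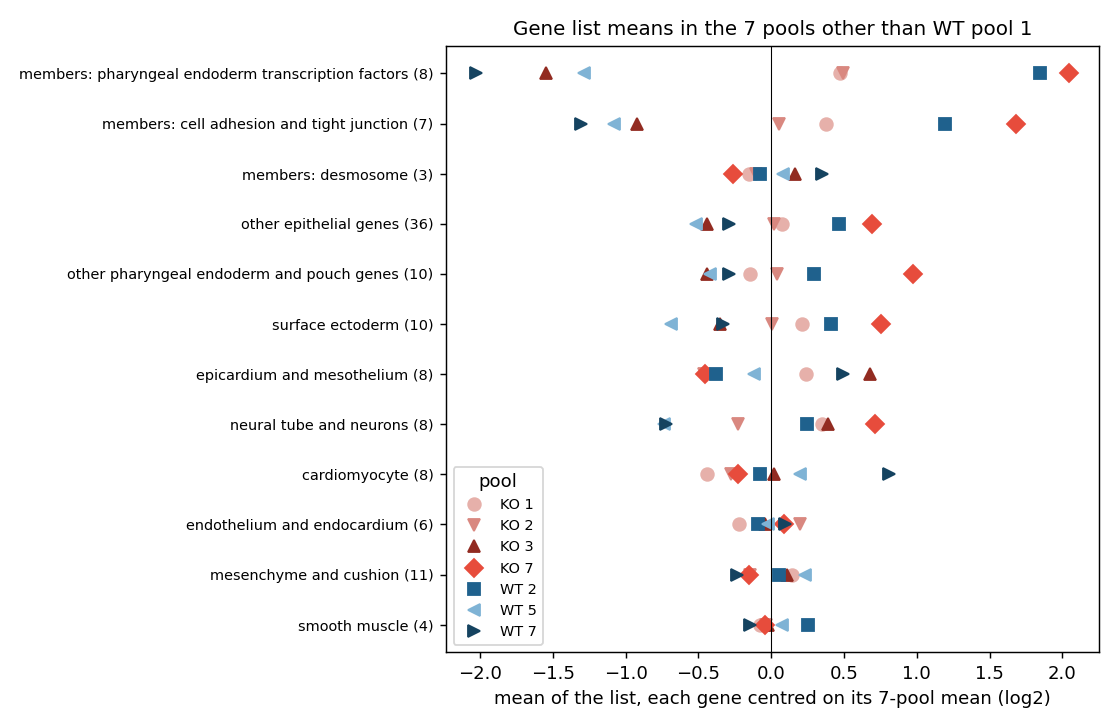
Mean of each gene list in 7 pools, with each gene centred on its own 7-pool mean (log2, horizontal), for 12 lists with the number of measured genes in brackets (KO pools red, WT pools blue). KO pool 7 and WT pool 2 stand at the right and KO pool 3, WT pool 5 and WT pool 7 at the left for pharyngeal factors and adhesion genes, and the points of endothelium, mesenchyme and smooth muscle lie close together.

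The liver and the lung and thyroid lists hold products of other endoderm. Afp, made by liver and yolk sac endoderm, read -3.11, -0.50, -0.19 and -3.16 in the KO pools, against -4.25, 0.77, -3.15 and 1.59 in the WT pools. Ttr, made in the same tissues, had -5.03, -3.76, -3.40 and -3.42 in the KO pools, against -0.073, -3.24, -4.47 and -1.87 in the WT pools. Apart from WT pool 1, Afp was low in KO pools 1 and 7 and in WT pool 5, and high in WT pools 2 and 7. Of the 4 genes of lung and thyroid products only Tg, thyroglobulin, was measured, with -2.54, -2.31, -2.53 and -1.78 in the KO pools, against 1.03, -2.29, -2.57 and -1.65 in the WT pools. The 4 erythroid genes were lowest in WT pool 5, with a centred mean of -1.25, and highest in KO pool 2, at 0.79. For all 4 of them KO pool 3, WT pool 5 and WT pool 7 were the 3 lowest pools as well, although KO pool 7 and WT pool 2 were not the 2 highest. The same 3 pools were lowest for 6.31% of all genes. Alas2, of heme synthesis in red cells, had 3.77, 4.55, 2.87 and 3.98 in the KO pools, against 0.47, 4.44, 1.84 and 2.72 in the WT pools.

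Promoters are shown for 4 genes that moved together between pools and hold the E-box CACCTG. That motif is known as a binding site of the Snail and Zeb repressors of epithelial genes. RefSeq promoters were at hand for 23 of the 33 genes, as 27 windows of 250 bases before the start on GRCm38.p6. CACCTG, or CAGGTG on the same strand for the other orientation, stood in 11 of the 27 (40.7%), each of a different gene, against 17.2% of 32851 promoters of that length. The 11 genes were Ap1m2, Cldn4, Cldn6, Cldn7, Elf3, Epcam, Foxa1, Grhl3, Nkx2-1, Rab25 and Spint2. Of the 19 genes with the pool pattern 14 had a promoter and 7 held the motif, and of the other 9 measured genes 6 had one and 2 held it. The grainyhead palindrome AACCGGTT was in 0 of the 27 and in 0.116% of all promoters. The motifs do not overlap each other. A match describes the letters in the window and says nothing of binding. In the sequences capitals mark the motif. The Epcam window is chr17:87635729-87635978 on the plus strand, with matches starting at -187 and -19. The Cldn4 window is chr5:134946935-134947184 on the minus strand, with a match at -14. The Cldn6 window is chr17:23679115-23679364 on the plus strand, with a match at -93. The Foxa1 window is chr12:57546112-57546361 on the minus strand, with a match at -23.
Epcam promoter: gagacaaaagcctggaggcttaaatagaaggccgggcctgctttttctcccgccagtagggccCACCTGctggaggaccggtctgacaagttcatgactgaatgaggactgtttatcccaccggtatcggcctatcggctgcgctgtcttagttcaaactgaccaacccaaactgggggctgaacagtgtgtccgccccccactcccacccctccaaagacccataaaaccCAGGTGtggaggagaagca
Cldn4 promoter: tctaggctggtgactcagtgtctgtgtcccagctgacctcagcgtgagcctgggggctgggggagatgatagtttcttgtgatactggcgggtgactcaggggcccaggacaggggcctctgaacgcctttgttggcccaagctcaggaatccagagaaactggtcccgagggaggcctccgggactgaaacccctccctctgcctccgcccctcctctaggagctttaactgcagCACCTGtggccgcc
Cldn6 promoter: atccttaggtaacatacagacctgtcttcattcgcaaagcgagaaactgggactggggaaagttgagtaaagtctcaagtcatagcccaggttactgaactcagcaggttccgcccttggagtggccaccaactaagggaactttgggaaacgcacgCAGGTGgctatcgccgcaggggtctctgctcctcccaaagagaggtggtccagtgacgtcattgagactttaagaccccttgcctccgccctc
Foxa1 promoter: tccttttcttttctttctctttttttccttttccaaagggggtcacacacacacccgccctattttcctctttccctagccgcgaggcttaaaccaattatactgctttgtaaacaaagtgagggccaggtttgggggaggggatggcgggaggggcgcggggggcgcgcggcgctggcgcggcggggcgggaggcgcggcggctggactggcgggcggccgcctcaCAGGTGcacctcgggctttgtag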

How the data were processed

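The authors deposited 1 Agilent Feature Extraction 10.7.3.1 file per array (protocol GE1_107_Sep09, per the file headers) with 60-base probes placed on mm9. The deposited values are linear intensity, and per the file headers the processed signal was background-subtracted and detrended within the array and not scaled between arrays. The deposited matrix matched it within 0.497%. Per the labels' protocols, 50 ng of RNA with an integrity number over 8.0 was labelled with Cy3.

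From these, spots of 1 probe were averaged (59305 spots, 55681 probes), scaled to the array's 75th percentile and put on the log2 scale. Probes had to be well above background in at least 3 pools of the same genotype (33400 probes), and the brightest such probe on average stood for its gene. Genes were named through accessions (26056 probes) or the file's name. KO and WT pools were compared with limma 3.58.1 in R 4.3.3 (two-sided, Benjamini-Hochberg over all genes, threshold 0.05), tested on simulated data, and Aldh1a2 also by exact permutation over 70 assignments. The number of arrays limits the precision. The 33 genes and all gene lists were chosen with earlier results of these data known. All 33 are named, with up to 3 genes of each other list by level, and Aldh1a2. Alternatives were other scalings, background, filters, probes, variance models, array weights, blocks, the deposited matrix and leaving out pools.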

Additional observations from a re-analysis of the deposited data

Results flagged for a closer look

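Samples were checked for values far from the rest of their own group of 4, by the gap to the nearest pool over the range of the group. There were 58 groups, the 28 measured genes and their mean in each genotype, and Aldh1a2 was not checked in this way. Of the 58 groups 6 stood out, where chance gives about 2.9, or 1 in 20, and 4 of the 6 were WT pool 1. In that pool Cdh3 was at -0.052, against 1.42 to 1.65 in the other 3 WT pools, and Ovol2 at 1.15, against 2.67 to 2.82. Spint2 was at 0.25 there, against 1.83 to 1.97, and Dsp at 1.81, against 3.47 to 3.78. These 4 genes were even over the other 7 pools, and the array of WT pool 1 is the one that stood apart over all probes. Cldn3 in KO pool 7 was at -0.84, against -2.39 to -2.20 in the other 3 KO pools. Cldn7 in WT pool 2 was at 0.25, against -1.79 to -1.59 in the other 3 WT pools. Those last 2 values belong to the pools that were highest for 19 of the 28 genes.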

How the results depend on the processing

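With limma, no measured gene of the 33 passed the adjusted threshold in the main fit or in any of 25 alternatives, and the smallest adjusted p among 609 fitted values was 0.152, for Grhl3 with array weights. Of these values 133 had the other sign than in the main fit, and none of the 133 exceeded its standard error in both fits. Leaving out 1 pool at a time gave 0 to 0 genes and 0 to 0 of the 33 called. In those fits 2 to 3 of the 24 to 28 measured genes were without overlap, against 6.55% to 14.4% of all genes. The median log2 fold change was then -0.37 to 0.53 and the Aldh1a2 difference -1.79 to -0.97. The count without overlap was 2 in the main fit, against 5.49% of all genes, 1 under quantile normalization, against 6.60%, 0 with arrays scaled to their median, against 1.16%, and 1 with normexp background, against 5.47%. Over all genes 8 were called with array weights. Median scaling of 8 arrays moved the median of all genes to 0.67 and that of the 28 to 0.65. Settings chosen after the data were seen gave, without WT pool 1 and with median scaling, 22 genes called over all and 1 of the 27 measured without overlap, against 10.99% of all genes. Without WT pool 1 and KO pool 7, 1 gene was called over all, and without WT pools 1 and 2, 10 of 27 did not overlap, against 23.0% of all genes. Without WT pools 1 and 2 every gene had to pass the filter through the KO pools alone, and no difference is read from that count. Pool numbers 1, 2 and 7 occur in both groups, and deviations of same-numbered pools from their group means correlated at -0.16, 0.31 and -0.38. The WT means include WT pool 1, so these values show no pairing by number and cannot exclude it. With the pool number as a replicate block 0 genes were called, the median was 0.21 and Aldh1a2 differed by -1.57. Each group has few arrays, and the dim genes lie near background in KO pool 3 and WT pools 5 and 7, which limits what a change there can show.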

Other observations

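Outside the gene lists, 381 of 24385 measured genes had the same order at both ends, with KO pool 7 and WT pool 2 highest and KO pool 3, WT pool 5 and WT pool 7 lowest of 7 pools. The genes named next were chosen after their values were seen, for their wide range and known place in the pharyngeal region, and no test is given. Tbx1, a T-box factor of pharyngeal endoderm and mesoderm, had log2 values of 1.75, 2.39, 1.24 and 2.81 in the KO pools, against -0.45, 3.34, 0.39 and -0.42 in the WT pools. Eya2, a transcriptional cofactor of the pharyngeal arches, read -0.94, -1.58, -2.93 and 0.92 in the KO pools, against 0.67, -0.16, -3.32 and -4.29 in the WT pools. Both genes share the 2 high and the 3 low pools with Foxa1 and Epcam, and they are made in the arches beyond the endoderm.

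Hoxa3, a Hox gene of the third arch and pouch, had 0.31, 0.28, 0.11 and 1.53 in the KO pools, against -2.42, 0.71, -1.03 and -3.12 in the WT pools. Hoxa2, of the second arch, read -1.69, -1.19, -2.32 and 0.17 in the KO pools, against -2.21, 0.016, -2.15 and -3.98 in the WT pools. For Hoxa3 WT pools 5 and 7 were low while KO pool 3 lay close to KO pools 1 and 2. Among hedgehog response genes Gli1 had 1.85, 1.36, 0.50 and 2.45 in the KO pools, against 0.76, 2.18, -0.20 and -1.30 in the WT pools, and Hhip, a hedgehog-binding membrane protein, had -0.96, -0.99, -2.10 and -0.56 in the KO pools, against -1.71, 0.21, -2.70 and -3.77 in the WT pools. Kdf1, a gene of keratinocyte differentiation, had -2.43, -2.29, -4.78 and -0.95 in the KO pools, against -1.73, -1.82, -4.46 and -4.41 in the WT pools. Each had its own range of more than 3 log2 units over the 7 pools, and what sets the shared order was not tested.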
